A study of Mus musculus with 23 samples.

Results

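The genes described here are 8 receptors of the tumour necrosis factor (TNF) receptor superfamily: Tnfrsf13b (TACI), Tnfrsf13c (the BAFF receptor), Cd40, Ltbr (the lymphotoxin beta receptor), Tnfrsf1a and Tnfrsf1b (the TNF receptors), Tnfrsf9 (CD137) and Cd27. They were taken by name as a family, with earlier results of these data known, and their probes were found through RefSeq accessions. All 8 had a probe and all 8 entered the tests, out of 18217 genes with a probe and 13720 genes tested. RNA was measured on Agilent one-colour whole mouse genome arrays, 23 arrays of 22 samples. The lymphoma lines were 9 cultures of B cell lymphomas from spleens of mice that lacked both Atm and Cd3e, grown in suspension, with the sex not determined. The Atm knockout (KO) spleens were 6 tumour-free spleens of mice lacking Atm and Cd3e, all labelled female. The Atm wild-type (WT) spleens were 7 spleens of mice with Atm that lacked Cd3e, 4 male and 3 female. All animals shared a mixed C57BL/6 x 129 background and, by their labels, the Cd3e deletion, which as background knowledge removes T cells, so even the wild-type spleens are not spleens of ordinary mice. Ages are not given in the sources used here. Line 8 was hybridised to 2 arrays, since 1 of them carries the word repeat in its title, and the 10 lymphoma arrays were therefore counted as 9 lines, against 10 lines in the design text. The labels give each sample a number of its own but do not say how cultures or animals were related, and p-values measure the spread between these samples only.

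Receptors of this family bind trimeric ligands on neighbouring cells or in solution and pass the signal on through TRAF adaptors or through death domains. Many of them switch on NF-kappaB, the canonical arm through the IKK complex and the alternative arm through the kinase NIK, encoded by Map3k14. In the spleen, the BAFF receptor keeps mature B cells alive, CD40 receives help from T cells, and the lymphotoxin beta receptor on stromal and myeloid cells maintains the follicles and the marginal zone.

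A level is the log2 of the background-corrected probe signal minus that array's 75th percentile, so 0 is the brightness of the 75th percentile spot. The 75th percentile was 492 to 790 intensity units on lymphoma arrays, 669 to 898 on KO arrays and 570 to 830 on WT arrays, and the share of spots well above background was 54.9% to 62.3%, 62.6% to 67.7% and 61.7% to 66.9% in the same order of groups. The Atm probe ran from -4.38 to -2.77 in the lines and from -2.69 to -2.07 in KO spleens, against -0.66 to 0.00 in WT spleens, with no overlap between genotypes. The Cd3e probe, in contrast, was well above background in all 22 samples and brighter in the lines, at -3.30 to -1.22, than in KO spleens, at -4.65 to -3.86, and WT spleens, at -4.63 to -3.96. Whether it lies in the deleted part is not given in the sources used here, so it does not check the Cd3e label. B cell markers were present in all 3 groups: the mean level of 17 markers was 2.79 to 3.46 in the lines, 3.86 to 4.35 in KO spleens and 3.85 to 4.41 in WT spleens. Of these 17, 6 were higher and 6 lower in the lines than in KO spleens, where 41.5% and 28.9% of all genes tested were, and with arrays centred on their medians 10 were higher and 3 lower, the largest drop being in Fcer2a and Cr2, the receptors for IgE and complement on mature splenic B cells.

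The promoters of 6 receptors are shown beside the levels: those higher in the lines, those at or near background there, and Tnfrsf9, which varied most among the lines. The RefSeq promoter table of build GRCm38.p6 held 7 of the 8 genes, each as 300 bases from 250 before to 50 after an annotated start, printed 5′ to 3′ on the strand of the gene. The sequences are those of the BAFF-binding members Tnfrsf13b (chr11:61126505-61126804, plus strand) and Tnfrsf13c (chr15:82224331-82224630, minus strand). The others are those of Ltbr, above background in no line (chr6:125313836-125314135, minus strand), and of Tnfrsf1a (chr6:125349473-125349772, plus strand). Last come Cd27 (chr6:125236978-125237277, minus strand) and the second annotated start of Tnfrsf9 (chr4:150927749-150928048, plus strand). Capitals mark a match, on either strand, to the ETS motif AGGAAGT, to the AP-1 motif TGANTCA or to the NF-kappaB consensus.
Tnfrsf13b: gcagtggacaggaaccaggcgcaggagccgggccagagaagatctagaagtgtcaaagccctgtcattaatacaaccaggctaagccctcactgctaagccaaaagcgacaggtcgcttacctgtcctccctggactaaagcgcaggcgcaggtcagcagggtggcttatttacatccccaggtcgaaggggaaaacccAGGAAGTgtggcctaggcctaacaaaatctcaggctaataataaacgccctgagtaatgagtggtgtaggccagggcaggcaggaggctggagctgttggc
Tnfrsf13c: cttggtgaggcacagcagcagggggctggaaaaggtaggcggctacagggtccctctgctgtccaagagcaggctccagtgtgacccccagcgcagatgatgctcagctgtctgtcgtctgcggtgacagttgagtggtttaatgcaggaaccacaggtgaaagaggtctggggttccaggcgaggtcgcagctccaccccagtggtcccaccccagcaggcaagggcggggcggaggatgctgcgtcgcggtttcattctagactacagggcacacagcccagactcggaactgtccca
Ltbr: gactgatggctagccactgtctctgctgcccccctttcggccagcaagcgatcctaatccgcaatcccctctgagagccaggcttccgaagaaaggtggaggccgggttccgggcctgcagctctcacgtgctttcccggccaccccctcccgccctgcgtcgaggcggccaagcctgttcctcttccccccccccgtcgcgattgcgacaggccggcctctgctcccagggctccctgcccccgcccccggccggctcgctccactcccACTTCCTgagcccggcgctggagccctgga
Tnfrsf1a: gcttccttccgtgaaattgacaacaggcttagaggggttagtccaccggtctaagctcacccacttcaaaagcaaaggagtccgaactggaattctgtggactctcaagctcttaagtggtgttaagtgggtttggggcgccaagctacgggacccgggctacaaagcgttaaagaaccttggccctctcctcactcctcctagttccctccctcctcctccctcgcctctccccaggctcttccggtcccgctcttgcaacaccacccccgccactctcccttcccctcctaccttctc
Cd27: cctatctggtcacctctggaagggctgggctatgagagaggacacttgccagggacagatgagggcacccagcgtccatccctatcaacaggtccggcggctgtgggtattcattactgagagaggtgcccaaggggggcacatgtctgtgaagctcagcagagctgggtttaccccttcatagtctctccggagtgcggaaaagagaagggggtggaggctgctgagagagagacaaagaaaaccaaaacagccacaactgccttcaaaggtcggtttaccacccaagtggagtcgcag
Tnfrsf9: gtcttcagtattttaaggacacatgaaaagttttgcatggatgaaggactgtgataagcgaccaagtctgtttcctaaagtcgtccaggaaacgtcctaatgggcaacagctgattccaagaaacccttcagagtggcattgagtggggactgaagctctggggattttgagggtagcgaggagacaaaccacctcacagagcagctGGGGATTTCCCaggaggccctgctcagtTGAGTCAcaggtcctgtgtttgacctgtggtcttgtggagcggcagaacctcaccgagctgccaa

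The ETS motif was found once in the Tnfrsf13b window, starting 51 bases before the annotated start, and once in the Ltbr window, on the opposite strand within the transcribed bases. It lay in 9.35% of the 32841 promoters of the same length. The second Tnfrsf9 window held overlapping matches to the NF-kappaB consensus, found in 8.46% of promoters, and the palindromic AP-1 motif, found in 7.81%. No match to these 3 motifs was found in the windows of Tnfrsf13c, Tnfrsf1a, Tnfrsf1b, Cd27 or the first start of Tnfrsf9. The Ltbr window was the richest in CpG among the members, with 23 CpG dinucleotides, more than in 78.5% of all promoters, and the first Tnfrsf9 window the poorest, with 4, more than in 31.4%. Cd27 held 7, Tnfrsf13b 8, Tnfrsf1a 11, Tnfrsf13c 12 and Tnfrsf1b 13, beside a median of 7 over all promoters.

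Set against KO spleens, the lymphoma lines carried more message for the BAFF-binding receptors among these 8, Tnfrsf13b and Tnfrsf13c, and less for the other 6. Tnfrsf13b rose 3.51-fold and Tnfrsf13c 3.10-fold. Ltbr, Tnfrsf1a and Cd27 fell to or near background, Tnfrsf9 and Tnfrsf1b fell 4.27-fold and 2.73-fold, and Cd40 fell 1.46-fold. By limma with Benjamini-Hochberg adjustment over 13720 genes at a threshold of 0.05, 2 of 8 were called higher, where 41.5% of all genes tested were, and 6 of 8 lower, where 28.9% were. The median difference was -1.77 over the 8 receptors and 0.18 over all genes tested. Since 70.5% of all genes were called between lines and KO spleens, a call by itself sets a gene little apart, and the sizes below carry more than the count. Ltbr, Tnfrsf1a and Cd27 passed the filter on dim probes through the spleens, which meant that they had to come out lower in the lines.

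**Figure D1:**
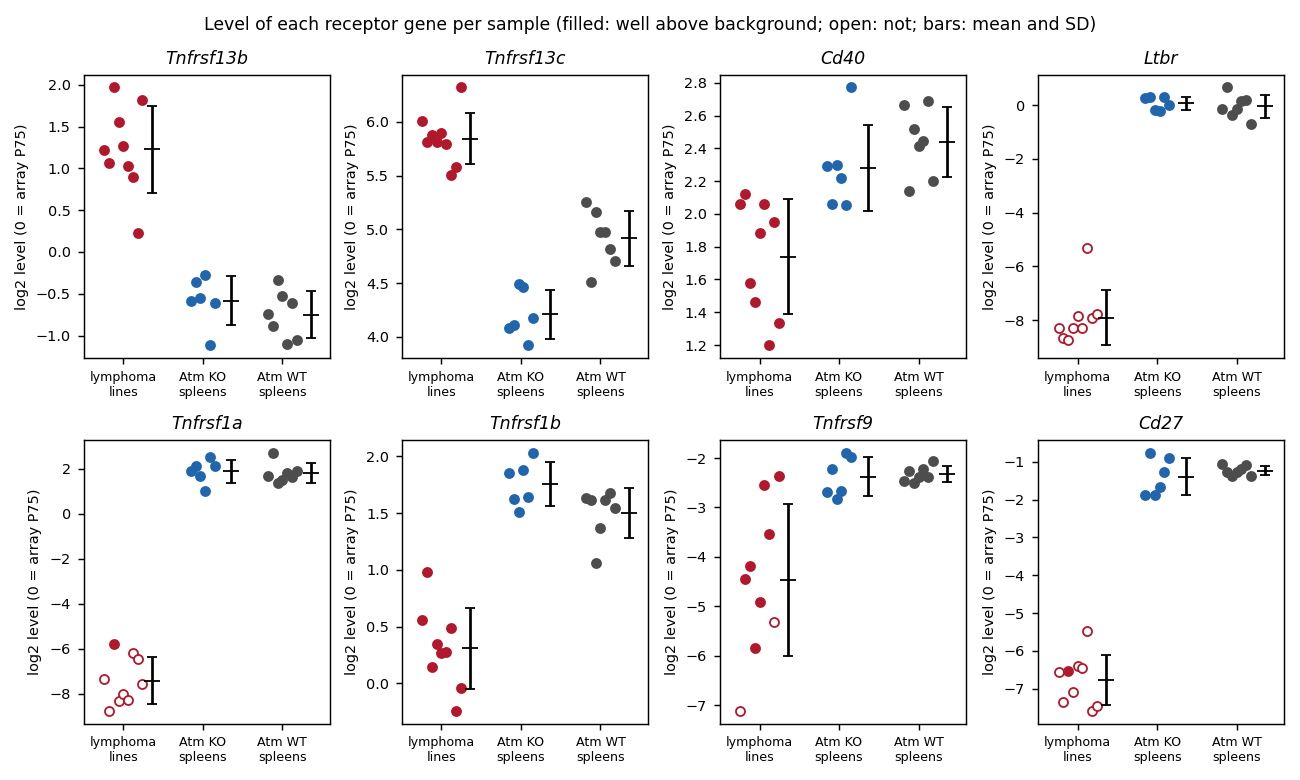
Log2 level of each receptor gene (0 is the array's 75th percentile) in single lymphoma lines (left, 9), Atm KO spleens (middle, 6) and Atm WT spleens (right, 7), with filled points well above background, open points not, and bars for mean and SD. Tnfrsf13b and Tnfrsf13c lie highest in the lines, while Ltbr, Tnfrsf1a and Cd27 are open in 9, 8 and 8 of the 9 lines. Each panel has its own vertical scale.

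Tnfrsf13b encodes TACI, which binds BAFF and APRIL on B cells and takes part in class switching. Its level ran from 0.23 through a median of 1.22 to 1.97 in the lines, against -1.12, -0.57 and -0.27 (lowest, median and highest) in KO spleens and -1.11, -0.74 and -0.34 in WT spleens. Every line lay above every spleen. The log2 difference was 1.81 ± 0.21 (SE) against KO spleens (adjusted p = 9.93e-08, limma) and 1.98 ± 0.20 against WT spleens (adjusted p = 1.07e-08, limma). The lowest line was number 8, whose first array read 0.64 and whose repeat array read -0.19.

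Tnfrsf13c encodes the BAFF receptor, the survival receptor of mature B cells. Its level was 5.504 at the lowest, 5.81 at the median and 6.32 at the highest in the lines, against 3.92, 4.15 and 4.497 in KO spleens and 4.51, 4.97 and 5.25 in WT spleens. The 3 groups did not overlap, with lines on top, WT spleens between and KO spleens lowest. The 2 spleen groups nearly met, at 4.497 in the highest KO spleen and 4.51 in the lowest WT spleen. The lines exceeded KO spleens by 1.63 ± 0.13 (adjusted p = 3.34e-10, limma) and WT spleens by 0.93 ± 0.12, a 1.90-fold difference (adjusted p = 8.31e-07, limma). The lines were close to one another here: the SD was 0.24 among the 9 lines, and 15.04% of all genes tested had a smaller one.

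Cd40 encodes the receptor for the CD40 ligand of activated T cells. That the Cd3e deletion removes T cells is background knowledge and was not tested here. All 15 tested T cell markers were above background in every spleen. Cd40 was well above background in all 22 samples. Its level was 1.20, 1.88 and 2.12 in the lines, 2.05, 2.25 and 2.77 in KO spleens and 2.14, 2.44 and 2.69 in WT spleens. The lines overlapped the KO spleens, and only the WT spleens lay wholly above them. The differences were -0.54 ± 0.15 against KO spleens (adjusted p = 0.00335, limma) and -0.70 ± 0.15 against WT spleens (adjusted p = 0.000207, limma). These differences depended on the scaling: with each array centred on its median instead, under which the median difference of all genes from KO spleens was 0.77 in place of 0.18, the Cd40 difference was 0.04 (adjusted p = 0.833, limma) and its direction turned.

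Ltbr encodes the lymphotoxin beta receptor, found on stromal and myeloid cells and as a rule not on lymphocytes. It was well above background on 0 of 10 lymphoma arrays and in all 13 spleens. The measured level was -8.75, -8.31 and -5.32 in the lines, against -0.23, 0.13 and 0.29 in KO spleens and -0.72, -0.13 and 0.66 in WT spleens. The fitted differences were -7.98 ± 0.37 and -7.86 ± 0.35 from KO and WT spleens (adjusted p = 2.6e-14 and 1.22e-14, limma). Levels under the dimmest detected probe of an array have no order, so undetected values were raised to that floor, which gave a level at least 75.9-fold lower than in KO spleens and at least 70.0-fold lower than in WT spleens.

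Tnfrsf1a encodes the death domain receptor for TNF, which most nucleated cells carry. It was well above background in 1 of 9 lines, line 3 at -5.77, and in all spleens. The lines measured -8.76, -7.56 and -5.77, against 1.003, 2.02 and 2.52 in KO spleens and 1.39, 1.70 and 2.72 in WT spleens, so that even line 3 lay far below every spleen. The fitted differences were -9.32 ± 0.39 from KO spleens (adjusted p = 4.99e-15, limma) and -9.22 ± 0.37 from WT spleens (adjusted p = 2.27e-15, limma). With undetected values at the floor, Tnfrsf1a was at least 240-fold and at least 225-fold lower. The arrays of line 8 disagreed on it: the first read -7.99, not above background, and the repeat -4.95, above background.

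Tnfrsf1b encodes the other TNF receptor, which has no death domain and is carried mainly by immune and endothelial cells. It stayed well above background in all 9 lines, at -0.24, 0.27 and 0.98, against 1.51, 1.75 and 2.03 in KO spleens and 1.06, 1.61 and 1.68 in WT spleens. No line reached any spleen. The differences were -1.45 ± 0.15 against KO spleens and -1.19 ± 0.14 against WT spleens (adjusted p = 1.81e-08 and 1.43e-07, limma). A second Tnfrsf1b probe gave smaller differences of the same sign, -0.50 ± 0.16 and -0.39 ± 0.15 (adjusted p = 0.00669 and 0.0234 over 20206 probes, limma).

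Tnfrsf9 encodes CD137, a costimulatory receptor induced on activated T and NK cells. It varied most among the lines: the level ran from -7.12 through a median of -4.45 to -2.35, a span of 4.76 log2 units, and 94.4% of all genes tested had a smaller SD there than its 1.54. Of the 9 lines, 7 were well above background, and lines 6 and 9, at -2.55 and -2.35, lay within the range of the KO spleens, -2.83 to -1.89. KO spleens had a median of -2.44, and WT spleens ran from -2.51 through -2.38 to -2.06. The differences were -2.09 ± 0.51 from KO spleens and -2.15 ± 0.49 from WT spleens (adjusted p = 0.00103 and 0.000515, limma), with overlapping groups in both. The second Tnfrsf9 probe differed by -2.29 ± 0.53 from KO spleens (adjusted p = 0.00059 over all probes, limma) but was above background in 2 lines only. Line 8 was again split, with -6.80, not above background, on its first array and -3.85, above background, on the repeat.

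Cd27 encodes the CD70 receptor of T cells, NK cells and memory B cells. It was well above background in 1 line, number 3 at -6.54, and in all 13 spleens. The lines measured -7.58, -6.56 and -5.49, against -1.88, -1.48 and -0.76 in KO spleens and -1.39, -1.27 and -1.06 in WT spleens. The lines and the spleens stood wholly apart. The differences were -5.37 ± 0.26 and -5.53 ± 0.25 (adjusted p = 5.54e-14 and 1.22e-14, limma), and with undetected values at the floor Cd27 was at least 26.9-fold lower than in KO spleens and at least 30.2-fold lower than in WT spleens.

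Against WT spleens the same count arose, 2 of 8 higher, where 40.3% of all genes tested were, and 6 of 8 lower, where 31.0% were, with a median of -1.67 over the receptors and 0.13 over all genes tested. This comparison shares the 9 lines with the one against KO spleens, so the counts are not independent. The groups did not overlap for 2 receptors that were higher and 4 that were lower than in KO spleens, where the same held for 24.1% and 16.9% of all genes tested. Against WT spleens they did not overlap for 2 and 5 receptors, beside 23.9% and 18.0%, and 71.3% of all genes were called there in either direction.

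**Figure D2:**
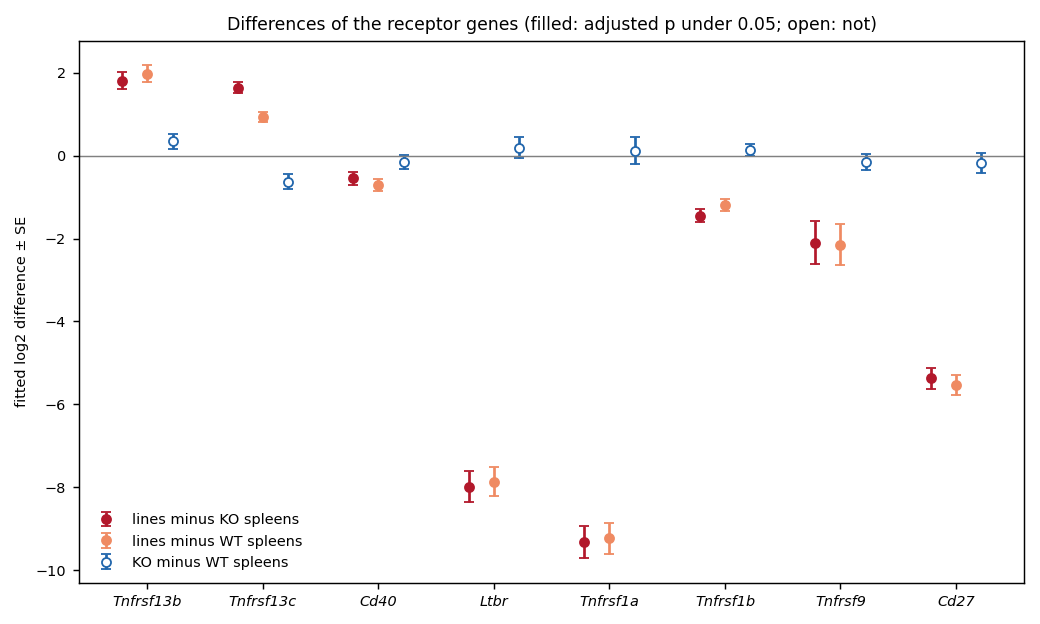
Fitted log2 difference with its standard error (vertical) for each receptor gene, in lines minus KO spleens, lines minus WT spleens and KO minus WT spleens, filled where the adjusted p was under 0.05. Every point for the lines is filled, above 0 for Tnfrsf13b and Tnfrsf13c and below it for the other 6 genes, and no point for KO minus WT is filled.

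The lines are one cell type in culture and the spleens are mixed tissue, and in such bulk RNA fewer cells of a type and less RNA per cell cannot be told apart. Markers of other splenic cell types were for the most part lower in the lines too. Those above background in no line, named below, passed the filter on dim probes through the spleens. Like Ltbr, Tnfrsf1a and Cd27, they had to come out lower. Of all genes tested, 28.9% were called lower and 41.5% higher than in KO spleens. All 15 tested macrophage and monocyte markers were lower in the lines than in KO spleens, with mean levels of -4.91 to -3.55 in the lines, 2.01 to 2.78 in KO spleens and 2.15 to 3.05 in WT spleens, and Cd163 and Ccr2 were above background in no line. All 12 NK cell markers were lower too, with mean levels of -7.19 to -5.20, 0.95 to 1.69 and 1.61 to 2.05 in the same order of groups, and Klrk1, Gzmb, Eomes and Klra8 were above background in no line. Of 15 T cell markers 11 were lower and 2 higher than in KO spleens, with mean levels of -5.17 to -3.58, -1.13 to -0.72 and -1.13 to -0.75, and Cd8a, Thy1, Txk and Tcf7 were above background in no line. Of 12 stromal and endothelial markers 8 were lower and 2 higher, with mean levels of -5.99 to -4.70, -3.68 to -3.04 and -3.32 to -2.76, and Col1a1, Col3a1, Dcn, Kdr and Cxcl13 were above background in no line. All 12 neutrophil markers were lower, with mean levels of -8.28 to -5.83, 1.44 to 4.42 and 1.15 to 4.81, and Lcn2, Elane, Csf3r, Retnlg and Mmp8 were above background in no line. All 8 dendritic cell markers were lower, with mean levels of -6.14 to -4.53, -0.64 to -0.30 and -0.61 to -0.32, and Zbtb46 and Cd209a were above background in no line. With median centring, 7 of the 8 dendritic cell, 14 of the 15 macrophage and monocyte and 9 of the 15 T cell markers were lower than in KO spleens. The dendritic cell count was also 7 with quantile normalization and with normexp. The part of these cell types in the lower receptor levels was not tested.

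Of the 6 slides, slide 1 held only lymphoma lines, numbers 7, 8 and 9, so these lines enter no comparison within a slide. Within each of the 5 slides that held both lines and spleens the directions were as in the whole set with 1 exception. Slides 2, 3, 4 and 6 held 1 line each, so most of the values below rest on a single line. Within slides, Tnfrsf13b was 1.52 to 2.24 higher in the lines than in KO spleens and Tnfrsf13c 1.41 to 1.92 higher. Ltbr differed by -8.73 to -8.09, Tnfrsf1a by -10.82 to -6.78, Tnfrsf1b by -1.73 to -0.59, Tnfrsf9 by -4.43 to -0.65 and Cd27 by -6.04 to -4.68. The exception was Cd40 on slide 6, at 0.01, with -1.10 as its other extreme.

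Ligands moved in both directions. Of 18 ligand genes of the superfamily 13 were tested, and in the lines 4 were higher and 5 lower than in KO spleens, where 41.5% and 28.9% of all genes tested were, with a median of -0.48. Cd70, the ligand of CD27, measured -2.59, -2.07 and -1.34 in the lines, against -8.70, -8.51 and -7.10 in KO spleens, where 0 of 6 samples were above background. The lines exceeded KO spleens at least 27.4-fold (log2 difference 6.24 ± 0.62, adjusted p = 1.1e-08, limma) and WT spleens, 3 of 7 of which were above background, at least 16.3-fold. Tnfsf9, the ligand of CD137, was higher by 3.42 ± 0.20 against KO spleens and by 3.06 ± 0.19 against WT spleens (adjusted p = 2.16e-12 and 5.58e-12, limma). Cd70 passed the filter on dim probes through the lines, and Cd27 through the spleens, so the opposite directions of that pair against KO spleens were fixed by the filter. Tnfsf9 was above background in all 9 lines, while Tnfrsf9 was so in 7.

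Tnfsf14, or LIGHT, which binds the lymphotoxin beta receptor and HVEM, was higher by 2.76 ± 0.36 against KO spleens (adjusted p = 5.47e-07, limma). Tnfrsf14, which encodes HVEM, differed by 0.13 ± 0.30 (adjusted p = 0.721, limma). Lta, which forms lymphotoxin and also binds the TNF receptors, was higher by 1.28 ± 0.28 (adjusted p = 0.000368, limma). Ltb, which makes up the membrane form of lymphotoxin with Lta, differed from KO spleens by -0.49 ± 0.27 (adjusted p = 0.104, limma) and from WT spleens by -1.10 ± 0.25 (adjusted p = 0.000536, limma). The Ltb call was lost with arrays centred on their medians (-0.53, adjusted p = 0.0518, limma). Fasl, the ligand of Fas made by NK and T cells, and Tnfsf4, the OX40 ligand, fell by at least 87.4-fold and at least 7.93-fold against KO spleens, with 3 and 0 of 9 lines above background. Tnfsf11 was above background in 1 of 9 lines and at least 1.57-fold lower (adjusted p = 0.0015, limma), a call lost with normexp (-0.16, adjusted p = 0.0693, limma). Fasl, Tnfsf4 and Tnfsf11 passed the filter on dim probes through the spleens, so their directions against KO spleens were fixed by the filter. Tnfsf18 differed by -1.24 ± 0.31 (adjusted p = 0.00113, limma). Tnf itself was the last of the 5, at -1.02 ± 0.25 (adjusted p = 0.000891, limma), a call lost with median centring (-0.43, adjusted p = 0.124, limma).

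Tnfsf13b, which encodes BAFF, was above background in all 22 samples and passed the test in no comparison. Its level was -4.19, -2.53 and -1.14 in the lines, against -3.49, -2.11 and -0.68 in KO spleens and -3.32, -2.70 and -0.35 in WT spleens, and all 3 ranges overlapped. The differences were -0.39 ± 0.48 against KO spleens and 0.08 ± 0.46 against WT spleens (adjusted p = 0.482 and 0.883, limma). Tnfsf13 (APRIL) was not analysed here for want of a named probe, and Cd40lg, above background in 1 sample at most, Tnfsf12, Tnfsf15 and Eda were too dim to test.

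**Figure D3:**
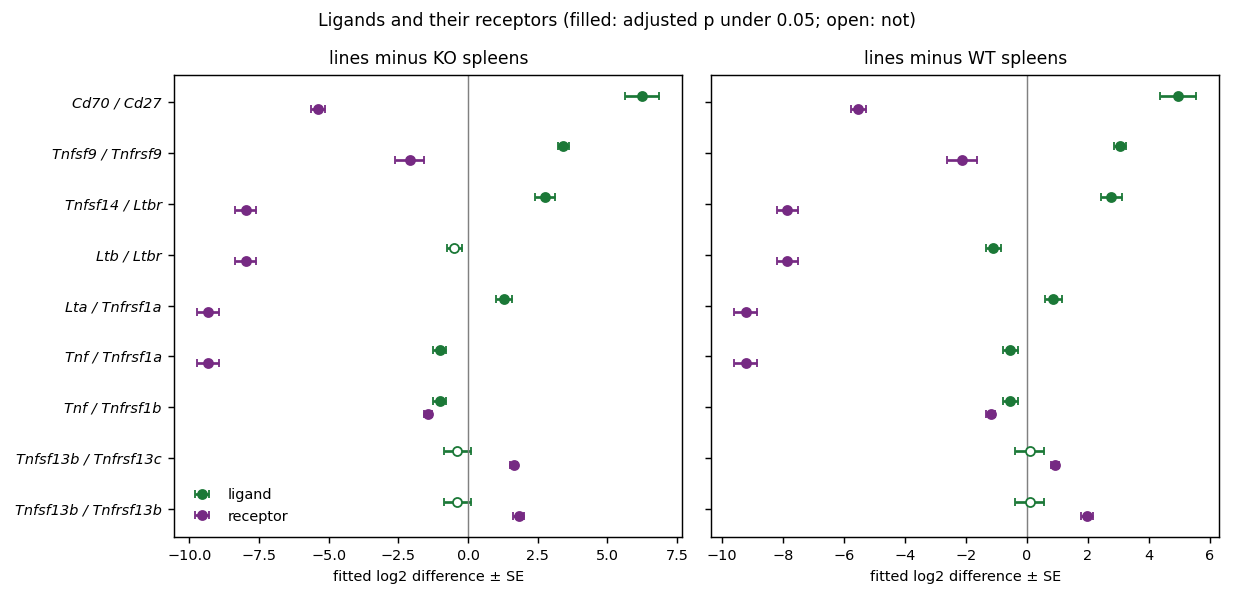
Fitted log2 difference with its standard error (horizontal) of ligands (green) and their receptors (purple), lines minus KO spleens on the left and lines minus WT spleens on the right, filled where the adjusted p was under 0.05. Cd70, Tnfsf9, Tnfsf14 and Lta lie right of 0 and the receptors drawn for them, all from the 8 described here, left of it. Tnf and Ltb lie left of 0 with their receptors, Ltb open against KO spleens, while Tnfsf13b lies near 0 beside raised Tnfrsf13b and Tnfrsf13c. The panels share the lymphoma lines.

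Among the other receptors of the superfamily, 16 of 20 were tested. In the lines 5 were higher and 8 lower than in KO spleens, where 41.5% and 28.9% of all genes tested were. With median centring 8 were higher and 8 lower. Tnfrsf8 (CD30) was at least 59.4-fold higher, with levels of -1.42 to -0.38 in the lines and 0 of 13 spleens above background. Tnfrsf8 passed the filter on dim probes through the lines, and Tnfrsf17 and Tnfrsf11a, given below, through the spleens. Their directions against KO spleens were therefore fixed by the filter. Fas, the death receptor for Fasl, was higher by 4.25 ± 0.14 (adjusted p = 1.15e-16, limma), Tnfrsf19 by 4.02 ± 0.45 (adjusted p = 6.13e-08, limma) and Tnfrsf10b, the TRAIL receptor, by 2.09 ± 0.18 (adjusted p = 9.67e-10, limma). Tnfrsf17, or BCMA, the third BAFF and APRIL receptor and a marker of plasma cells, went the other way from Tnfrsf13b and Tnfrsf13c: it was above background in 2 of 9 lines and at least 33.6-fold lower than in KO spleens. Tnfrsf25 differed by -5.76 ± 0.36, Tnfrsf11a (RANK) was at least 9.98-fold lower with 1 of 9 lines above background, and Ngfr differed by -3.87 ± 0.41 (adjusted p = 5.95e-12, 4.28e-07 and 2.43e-08, limma).

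Downstream, 9 of 24 adaptors and kinases were higher and 10 lower in the lines than in KO spleens, with a median of -0.03. Of all genes tested, 41.5% were called higher and 28.9% lower there. Map3k14, the NF-kappaB inducing kinase below the BAFF, CD40 and lymphotoxin beta receptors, measured -0.45, 0.43 and 0.88 in the lines, against 2.57, 2.74 and 3.12 in KO spleens. It fell by 2.42 on the log2 scale against KO spleens and by 2.70 against WT spleens (adjusted p = 5.72e-12 and 3.25e-13, limma). Traf3ip3 differed by -1.18 ± 0.19, Traf5 by -0.96 ± 0.23 and Ikbkb, a catalytic subunit of IKK, by -0.91 ± 0.11 against KO spleens. Siva1, a CD27-binding protein that promotes cell death, was higher by 1.53 ± 0.29, Map3k7 (TAK1) by 1.004 ± 0.18, Birc2 by 0.73 ± 0.15 and Traf6 by 0.73 ± 0.10. The balance of this list hung on the scaling: with median centring 13 were higher and 3 lower, and Traf5 was among the calls lost (-0.37, adjusted p = 0.163, limma).

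Between the spleens, the absence of Atm left the receptors with no call. By limma with sex as a term, 0 of 8 passed the test, where 3.83% of all genes did (1.65% higher and 2.18% lower in KO), and 1 of 8, Tnfrsf13c, had an unadjusted p under 0.05, where 20.4% of all genes did. The median difference of the 8 was -0.02, beside -0.05 for all genes tested. All KO spleens were female, so sex was in the fit. With that term, each fitted difference between the genotypes compares the 6 KO spleens with the 3 female WT spleens. The 4 male WT spleens add only to the estimate of the spread. No receptor passed the test between male and female spleens in this fit (smallest adjusted p = 0.662, limma). That test rests on 4 male and 3 female WT spleens, so it could miss differences.

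Tnfrsf13c came nearest to a call. Its levels did not overlap between the genotypes, 3.92 to 4.497 in KO spleens against 4.51 to 5.25 in WT spleens, as for 2.11% of all genes tested in that direction and 2.23% in the other. The fitted difference was -0.62 ± 0.17, or 1.54-fold lower in KO (p = 0.00309, adjusted p = 0.0634, limma). In the 3-group fit without sex it was -0.71 ± 0.14 and passed (adjusted p = 0.00791, limma), as did 0.875% of genes in that direction. Among female spleens it was -0.62 ± 0.15 (adjusted p = 0.0616, limma). That estimate equals the one with sex in the fit by construction, so it is not a second result. It was lower in KO within all 5 slides that held both genotypes, by -1.06 to -0.21. B cell markers gave 0 of 17 calls between the spleens, with a median of -0.14 and overlapping mean levels. With quantile normalization and with normexp, 1 of the 17 was lower in KO. The part of B cell number in the Tnfrsf13c level was not tested.

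**Figure D4:**
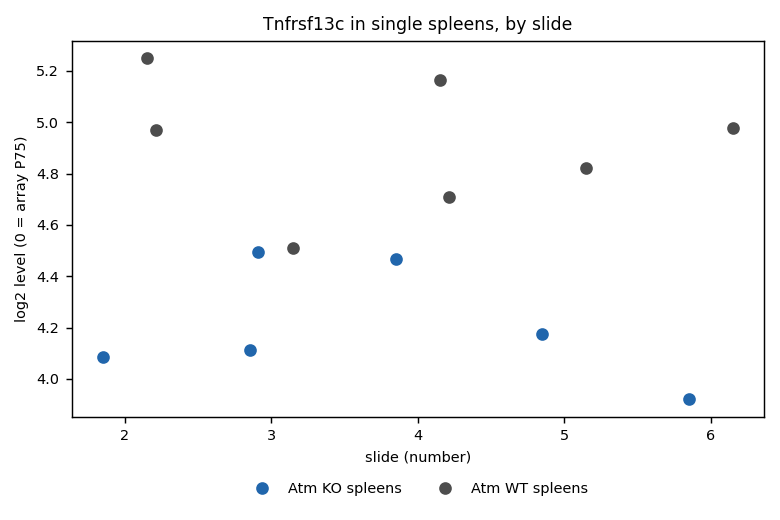
Log2 level of Tnfrsf13c (vertical, 0 is the array's 75th percentile) in single spleens by slide number (horizontal), Atm KO spleens in blue to the left of Atm WT spleens in grey. On each slide the KO mean is below the WT mean, by -1.06 at the most and -0.21 at the least, and on slide 3 the nearest values are 4.497 in KO and 4.51 in WT.

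The other members overlapped between the genotypes. Tnfrsf13b differed by 0.34 ± 0.19 (adjusted p = 0.317, limma), Ltbr by 0.19 ± 0.25, Tnfrsf1b by 0.14 ± 0.14 and Tnfrsf1a by 0.12 ± 0.32. Tnfrsf9 differed by -0.16 ± 0.20, Cd40 by -0.16 ± 0.17 and Cd27 by -0.18 ± 0.24, with adjusted p from 0.603 to 0.874 (limma) for these 6. The standard errors of Tnfrsf13b, Ltbr, Tnfrsf1a and Cd27 leave room for differences of the size seen in Tnfrsf13c, and those of Tnfrsf1b, Cd40 and Tnfrsf9 less so.

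Other genes of the family did pass between the spleens, higher in KO: 3 of 13 ligands and 2 of 16 receptors, where 1.65% of all genes tested were higher, with 0 of 24 adaptors and kinases in either direction. The ligand count was 2 higher with median centring, and 1 higher and 1 lower with normexp, which also called 1 adaptor or kinase lower. Tnfrsf17 measured -0.92, -0.62 and -0.04 in KO spleens, against -2.86, -1.98 and -1.18 in WT spleens, with group means of -0.53 and -2.04. The fitted difference, which is from the 3 female WT spleens, was 2.12 ± 0.23 (adjusted p = 0.00113, limma). Tnfrsf17 read -2.86 to -2.44 in those 3, below its -1.98 to -1.18 in the 4 male WT spleens. Plasma cell markers moved with it: 3 of 6 were higher in KO, among them Jchain by 1.98 ± 0.17 and Derl3 by 0.82 ± 0.19 (adjusted p = 0.000285 and 0.0358, limma), and their mean level was 2.11 to 2.62 in KO spleens against 1.57 to 1.84 in WT spleens. Between lines and KO spleens, 3 of these 6 markers were higher and 1 lower in the lines, with a median of 1.03. There 41.5% and 28.9% of all genes tested were called, and Tnfrsf17 was lower in the lines. The part of plasma cells in the Tnfrsf17 level was not tested. Tnfrsf10b was higher by 0.85 ± 0.16, Tnfsf4 by 1.76 ± 0.32, Tnfsf11 by 1.77 ± 0.35 and Tnfsf18 by 0.75 ± 0.16 (adjusted p = 0.0161, 0.0125, 0.0178 and 0.0263, limma). The Tnfsf18 call was lost with median centring (adjusted p = 0.0669, limma), and those of Tnfsf18 and Tnfsf11 with normexp (adjusted p = 0.08 and 0.0901, limma). Of 12 NK cell markers 7 were lower in KO, with mean levels of 0.95 to 1.69 in KO and 1.61 to 2.05 in WT, while Cd27, which NK cells carry, differed by -0.18 as above.

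Cd27, Ltbr and Tnfrsf1a lie near one another on chromosome 6, and 2 further genes stand between them in the order of the RefSeq gene table. In that order the 5 are Cd27, Tuba3a, Ltbr, Scnn1a and Tnfrsf1a, all of them tested. Scnn1a, which encodes a subunit of the epithelial sodium channel, was above background in 0 of 9 lines and in all spleens, at least 45.1-fold lower than in KO spleens and at least 49.1-fold lower than in WT spleens. Tuba3a, a tubulin gene, was higher in the lines by 1.02 ± 0.19 against KO spleens and by 1.34 ± 0.18 against WT spleens (adjusted p = 4.69e-05 and 7.25e-07, limma). Cd27, Ltbr, Scnn1a and Tnfrsf1a all passed the filter on dim probes through the spleens and so had to come out lower in the lines, where 28.9% of all genes tested were called lower than in KO spleens. Nothing is read from their number.

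**Figure D5:**
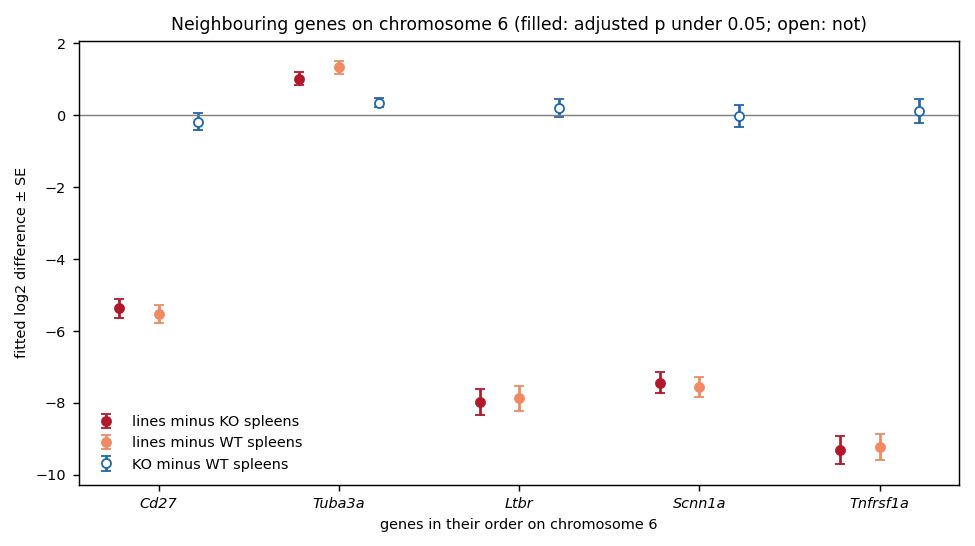
Fitted log2 difference with its standard error (vertical) of 5 neighbouring genes in their order on chromosome 6 (horizontal), in lines minus KO spleens, lines minus WT spleens and KO minus WT spleens, filled where the adjusted p was under 0.05. Cd27, Ltbr, Scnn1a and Tnfrsf1a are lower in the lines and Tuba3a, between Cd27 and Ltbr, is higher.

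Within the groups, the 4 members above background in all 22 samples were set against 9981 other genes, after the mean of each group was taken off. The genes most like Tnfrsf13b were Krba1 (r = 0.86), Naa16 (0.78) and Mtrf1l (0.78), and those most like Tnfrsf13c were Szrd1 (0.83), Krba1 (0.81) and Gtpbp3 (0.80), so Krba1 stood in both lists. For Cd40 they were Arv1 (0.72), Runx1 (0.71) and St3gal3 (0.70), and for Tnfrsf1b Ifngr1, the interferon gamma receptor (0.81), Rnf149 (0.76) and Gh (0.76). These coefficients are Pearson r over 22 samples that share arrays, scaling and slides, and they are given as a description. With Tnfrsf1b, Ifngr1 had an r of 0.76 in the 9 lines and 0.90 in the 13 spleens, and Gh 0.90 and 0.32. Both genes were picked over these same samples, so the parts are no separate check.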

How the data were processed

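The 8 receptors, the gene lists and the tests were chosen with earlier results of these data known. Scanner output of Agilent Feature Extraction 10.7.1.1 was deposited, and its processed intensity is corrected for background, per the file headers. The deposited value table holds log2 values, the same signal scaled and centred by probe (lowest correlation with the scanner values 0.9996), with its scale and centring taken from this match.

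Control spots (1639 per array) and 1556 outlier spots over all arrays were dropped. Spots of a probe were averaged over 41174 probes, of which 26690 had a symbol by RefSeq accession. Levels are log2 of the processed signal minus each array's 75th percentile. The arrays of line 8 were averaged, and it counted as above background where both arrays were. Tests took genes with a probe well above background in at least 6 of 22 samples, by the probe of highest mean. limma 3.58.1 in R 4.3.3 fitted lines against spleens over all 22 samples and KO against WT over the 13 spleens with sex, with Benjamini-Hochberg adjustment over 13720 genes and a threshold of 0.05. The fits were tested on simulated data. The array number limits the precision. Alternatives changed the scaling (normexp with an offset of 50, on median signals since mean signals were not used here), the filter, the probe, the slide, the array of line 8, the value table and each sample in turn. All 8 receptors are named, pathway genes by the largest called differences up to 4 each way, and like genes by the 3 highest r. Plots were drawn with matplotlib 3.10.9 in Python 3.11.15.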

Additional observations from a re-analysis of the deposited data

Results flagged for a closer look

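In 3 of the 24 combinations of gene and group, 1 sample lay farther from the rest of its group than Dixon's test allows at 95%, and chance marks about 5% of such groups. Ltbr in lymphoma line 7 measured -5.32, against -7.77 in the next line, but the probe was not well above background in either. Cd40 in KO spleen 6 measured 2.77, against 2.30 in the next KO spleen. Tnfrsf1a in WT spleen 2 measured 2.72, against 1.90 in the next WT spleen.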

How the results depend on the processing

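The calls for 7 of the 8 receptors between lines and spleens held under every alternative in which they were tested, and leaving out each sample in turn changed no call there. Cd40 was the exception: with median centring its difference was 0.045 from KO spleens (reversed, adjusted p = 0.833, limma) and -0.13 from WT spleens (adjusted p = 0.525, limma), and within slide 6 it was 0.010 from KO spleens. Median centring also moved the split of all genes between lines and KO spleens, to 8424 higher and 2598 lower in place of 5699 and 3967, and between lines and WT spleens to 8261 and 2735 in place of 5527 and 4250. The stricter filter, 16 of 22 samples, did not test Ltbr, Tnfrsf1a and Cd27, and so left 3 receptors lower in each of these comparisons. Between KO and WT spleens, Tnfrsf13c passed, as the only receptor, with quantile normalization (-0.62, adjusted p = 0.0428, limma), with normexp (-0.63, adjusted p = 0.0301) and in the 3-group fit without sex (-0.71), which gave 1 receptor lower in each. Leaving out single spleens gave 0 to 1 receptors lower, with Tnfrsf13c from -0.69 to -0.56. Tnfrsf13c passed without WT spleen 2 (adjusted p = 0.0312, limma). That spleen is male, and leaving out a male spleen changes the spread but cannot move the fitted difference between the genotypes. The direction turned for uncalled values: Cd40 was 0.015 and Tnfrsf1a -0.11 with slide as a fixed term, Tnfrsf1a -0.00025 with slide as a random block and -0.0082 to 0.30 with 1 spleen left out, and Ltbr -0.11 to 0.34 with 1 spleen left out. Over all genes this comparison gave 227 higher and 299 lower, against 147 and 112 with slide as a fixed term, 127 and 120 without sex and 74 and 50 without WT spleen 6. Causes of these changes were not tested, apart from the smaller number of genes under the filter. No paired analysis was possible because the labels give no replicate numbers shared between the groups. Signal over background limits the fold reductions of Ltbr, Tnfrsf1a and Cd27 in the lines to lower bounds.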

Other observations

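The arrays of lymphoma line 8 differed by a median of 0.31 log2 units over 11041 genes above background on both, and 95% of genes differed by less than 1.504. Tnfrsf1a and Tnfrsf9 were 3.04 and 2.95 higher on the repeat array, where both were above background, as they were not on the first. Tnfrsf13b was 0.82 and Tnfrsf1b 0.61 lower on the repeat array than on the first, and Tnfrsf13c differed by -0.11 and Cd40 by 0.25.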
